A study of Mus with 4 samples.

Results

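The nuclear receptor genes described here are 45 genes, taken by symbol from a fixed list, of the 21887 protein-coding genes in the RefSeq annotation of GRCm38.p6. The list leaves out Hnf4a, and its rule uses gene symbols only. Of the 45, 9 are receptors that govern bile acid, sterol, fatty acid and drug metabolism in the liver, namely Nr0b2, Nr1h2, Nr1h3, Nr1h4, Nr1i2, Nr1i3, Nr5a2, Ppara and Rxra. They are called the liver metabolic receptors here and were set against the other 36.

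Nuclear receptors are transcription factors that bind DNA and, in most cases, a small lipid-soluble ligand such as a steroid, a bile acid, a retinoid or a fatty acid. Many of them pair with a retinoid X receptor, recruit corepressors such as NCOR when no ligand is bound, and exchange these for coactivators when a ligand arrives. In the liver they set the transcription of genes for bile acid synthesis, lipid oxidation, gluconeogenesis and drug clearance, and some of these programs differ between the zones of the lobule.

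TBX3, a T-box transcription factor known as a repressor, was mapped in mouse primary hepatocytes that carried the construct pT2-SVNeo-EF1-eGFP-P2A-Tbx3-HA, in which the EF1 promoter drives HA-tagged TBX3 together with eGFP. Every library came from cells with this construct, Input included, so there were no cells without added TBX3 to compare with. Chromatin was pulled down with an antibody against HA in 2 TBX3 ChIP libraries, and sonicated chromatin from before the pull-down was sequenced in 2 Input libraries. Strain, age and sex of the mice are not given in the sources used here, and an IgG control library was not analysed here.

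The data are a single deposited track. For each base it gives a score, the −log10 of the Poisson probability of the ChIP read count there given the level expected from Input. It does not separate the libraries and does not say which of them entered it, so no score below has an error between replicates and no test was possible. Differences are therefore given as values and counts beside those of all protein-coding genes. The number of reads over a base and the expected level were inferred from each score. The lowest expected level was 1 shared genome-wide value of 2.43 reads, and the share of bases at it was not measured. At this level 6 reads give a score of 1.90, 7 give 2.44, 8 give 3.02 and 11 give 5.01. One read more or less thus moves a score of this size by about 0.58. Scores were uneven between chromosomes. The share of bases scoring 3 or more ran from 0.121% on chromosome 4 to 0.695% on chromosome 10 among the autosomes. A ChIP track holds no expression levels, so the hepatocyte label could not be checked against marker genes.

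Scores were read in 3 windows for each gene. For the promoter score the maximum was taken over 1 kb to each side of both gene ends, since the annotation used here gives no strand. The inside score is the highest between the ends, and the outside score is the highest within 10 kb beyond either end. The outer part of the promoter window is also part of the outside window, and its inner part lies in the inside window. A summit in either part thus counts in both windows. The annotation used here gives no exons, so summits inside genes are placed only by their distance from an end. For scale, the highest scores were 22.79 at E2f7 and 15.53 beside E2f8, the genes whose sites the study followed up. Whether these summits are the sites it followed up was not checked by position.

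At gene ends, the share of nuclear receptor genes with a high score was near that of all genes at 5 and depended on the window at 3. Only Esr1 and Esrra among the 45 reached a promoter score of 5, which is 4.44% of them, while 3.6% of all protein-coding genes did (789 genes). At the lower step of 3, 8 of the 45 qualified, or 17.8%, beside 29.1% of all protein-coding genes. With windows of 2 kb the order turned, and 21 of the 45 (46.7%) reached 3 beside 45.4% of all protein-coding genes. Setting each member at the share of genes on its own chromosome would give 14.1 members at 3 and 1.82 at 5. The median promoter score was 2.13 for the 45 genes and 2.44 for all protein-coding genes, a distance of less than 1 read. Below the median of all genes lay 26 of the 45, with 7 at it and 12 above it. Promoter scores of the 45 took only 16 different values, and 31 of them lay on the steps of the shared expected level. The lowest and the highest pileup behind a promoter score were 4 and 12 reads.

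**Figure D1:**
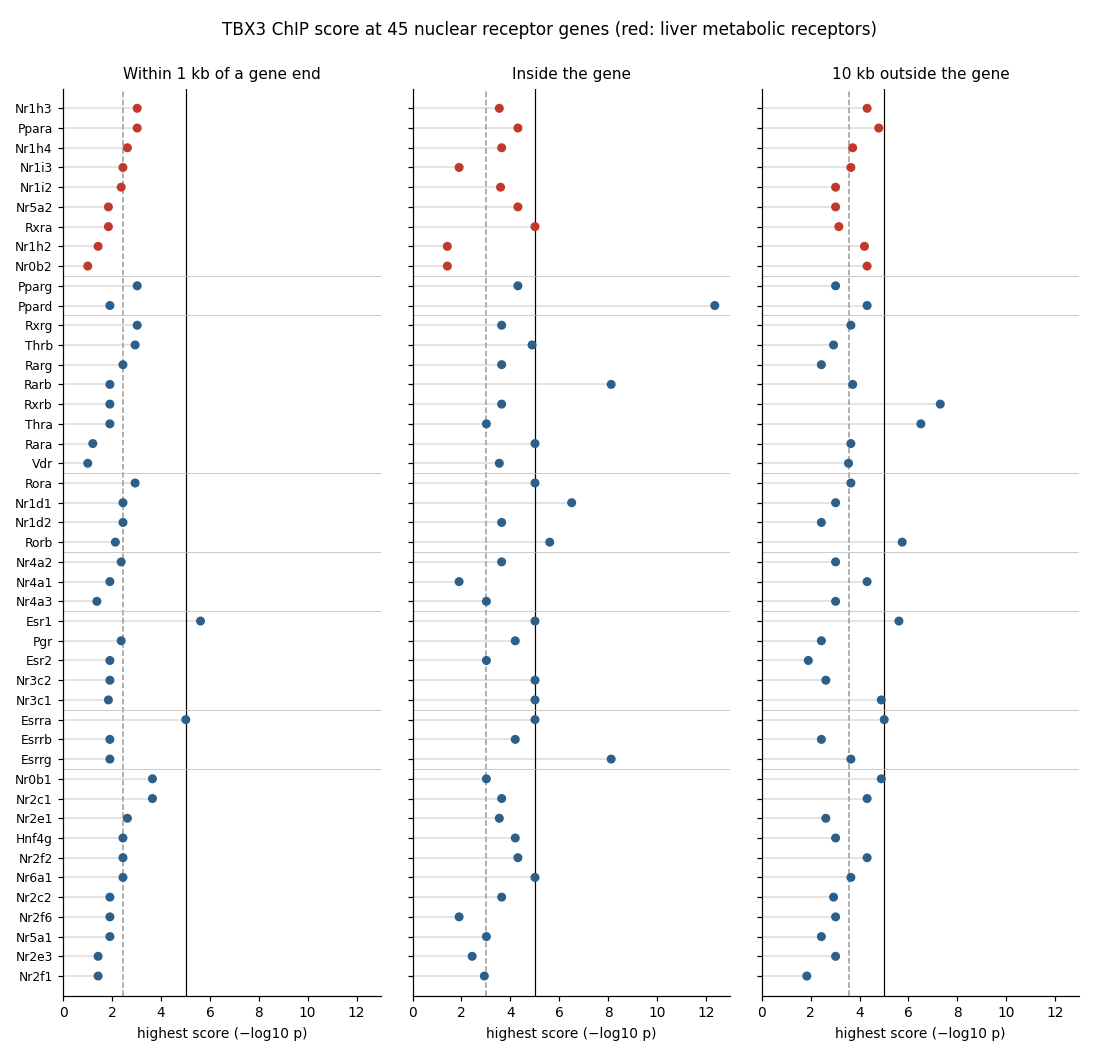
Highest score (−log10 p) in each of the 3 windows for all 45 nuclear receptor genes, grouped by role and ordered within each group by promoter score, with liver metabolic receptors in red. The dashed line is the median of all protein-coding genes and the solid line is a score of 5. Only Esr1 and Esrra reach 5 at a gene end, 13 genes do so inside and 5 outside, and Ppard stands farthest out with 12.37 inside the gene.

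The highest promoter score belonged to Esr1 (gene 13982), which encodes estrogen receptor alpha and lies on chromosome 10 from 4611989 to 5005633. Its score of 5.61 came from 12 inferred reads against 2.50 expected, at 4611218, which is 771 bp outside the lower-coordinate end. Only 4 bp there reached a score of 5. Chromosome 10 is the one with the highest share of bases at 3 or more, and 5.49% of its genes scored as high. Esrra (gene 26379), the estrogen-related receptor that controls mitochondrial genes, lies on chromosome 19 from 6910977 to 6922048. It scored 5.01 from 11 inferred reads against 2.43 expected, 2 bp inside its higher-coordinate end and 380 bp from the neighbouring gene Catsperz. Runs at 5 or more are given here with breaks of 30 bp or less closed, so not every base of a run reaches 5. The run at Esrra spanned 25 bp across the gene end, and 11 bp of it reached 5. Of the genes on chromosome 19, 8.79% scored as high. Both receptor sites thus rested on runs far shorter than the 200 bp that a called region needed.

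Another pair of members had a promoter score of 3.65, from 9 inferred reads. Nr0b1 encodes DAX1, a receptor of the adrenal and gonads without the usual DNA-binding domain, and its summit was 416 bp outside the lower-coordinate end. Nr2c1 encodes the orphan receptor TR2, and its summit was 439 bp inside the higher-coordinate end on chromosome 10, where 31.0% of genes scored as high. The remaining members at 3 or more shared a score of 3.02 from 8 inferred reads. They were Pparg, the receptor of fat cell formation, Rxrg, a retinoid X receptor mainly of muscle and brain, and the liver metabolic receptors Nr1h3 and Ppara. Of the members at 3 or more, 2 of the 4 on chromosome 10 and 1 of the 2 on chromosome 19 were among them, while none of the 2 on chromosome 4 and the 3 on chromosome 9 were. On chromosomes 4 and 9, 10.8% and 13.1% of genes reached 3, against 49.6% on chromosome 10 and 47.9% on chromosome 19. Members did not follow these shares throughout. On chromosomes 11, 13 and 17, 0 of 3, 0 of 1 and 0 of 2 members reached 3, beside 34.9%, 37.4% and 31.9% of genes. On chromosome 2 it was 1 of 5, beside 35.8%, and on chromosome X 1 of 1, beside 29.0%.

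The lowest promoter scores were those of Nr0b2, Vdr and Rara. Nr0b2, which encodes the bile acid responsive repressor SHP, and Vdr, the vitamin D receptor, both scored 1.00 from 4 inferred reads, and 97.2% of protein-coding genes scored as high. Rara, a retinoic acid receptor, scored 1.21.

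The liver metabolic receptors covered a narrow range at their ends. Nr0b2 scored 1.00 and Nr1h2, the oxysterol receptor LXR beta, scored 1.42 from 5 inferred reads. Nr5a2, which encodes LRH-1, an activator of bile acid synthesis genes, and Rxra, the partner that most of the others bind with, both scored 1.84. These values lay below the median of all genes.

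The xenobiotic receptors came next, Nr1i2 (PXR) with 2.37 and Nr1i3 (CAR) with 2.44, both from 7 inferred reads. The summit of Nr1i3 lay within the neighbouring gene Tomm40l. Nr1h4, the bile acid receptor FXR, scored 2.62 from 9 inferred reads, against an expected level of 3.34 at its end on chromosome 10. Nr1h3, the oxysterol receptor LXR alpha, and Ppara, the fatty acid receptor that drives oxidation during fasting, were the highest with 3.02. The Nr1h3 summit lay 574 bp outside the gene, in Acp2, and the Ppara summit lay 905 bp inside its higher-coordinate end. At their lower-coordinate ends Nr1h3 scored 1.90 and Ppara 0.36. With windows of 500 bp their promoter scores were 1.42 and 1.00.

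The median promoter score was 2.37 for the liver metabolic receptors and 2.02 for the other 36, a difference of 0.35, and both medians were below the 2.44 of all protein-coding genes. The difference is smaller than the step of 1 read. A score of 3 was reached by 2 of the 9 (22.2%) and 6 of the 36 (16.7%), and a score of 5 by 0 and 2. With windows of 500 bp the difference was −0.061, so its direction depended on the window. With the mean score over the window in place of the highest, it was 0.0019.

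**Figure D2:**
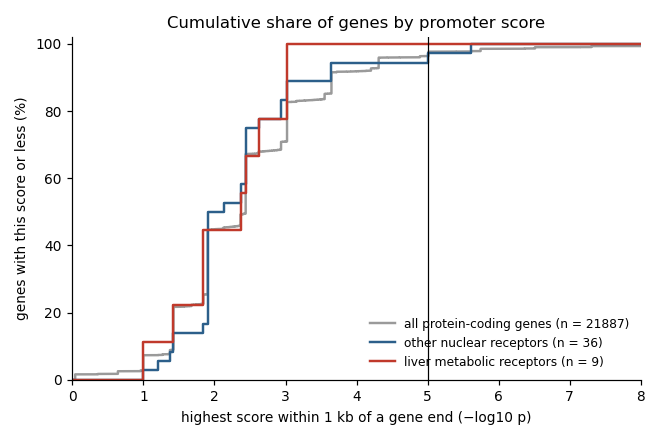
Cumulative share of genes (%) at or below each promoter score (−log10 p) for the 9 liver metabolic receptors, the other 36 nuclear receptor genes and all 21887 protein-coding genes, with a line at 5. The curves rise in steps, since scores take the values that whole reads give at a few expected levels, and the liver metabolic receptors end at 3.02.

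The mean score was also read along the gene ends. Within 500 bp of an end it was 0.300 over the 18 ends of the liver metabolic receptors, 0.324 over the 72 ends of the other receptors and 0.357 over the 43774 ends of all protein-coding genes. Between 3 and 5 kb from the ends it was 0.355, 0.350 and 0.344. In these means the receptor genes were lower near their ends than away from them, and all genes were slightly higher. Bins of 200 bp ranged from 0.157 to 0.519 for the liver metabolic receptors, so single bins of so few ends vary by more than these differences. Nr0b2, Nr1h2 and Nr1i3 are shorter than 5 kb, so positions between 3 and 5 kb inside them approach or pass their other end. The mean score within 1 kb of both ends, taken per gene, did not show the receptor genes lower. Its median was 0.335 for the liver metabolic receptors, 0.333 for the other members and 0.333 for all protein-coding genes.

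**Figure D3:**
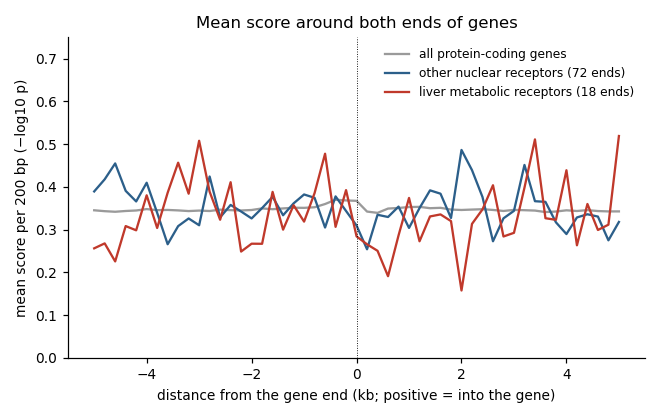
Mean score (−log10 p) in bins of 200 bp by distance from the gene end in kb, positive into the gene, with both ends of each gene averaged. The curve of all protein-coding genes stays between 0.339 and 0.370, and those of the receptor genes vary around it with no peak at the end.

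Inside genes, 13 of the 45 reached a score of 5, or 28.9%, beside 13.9% of all protein-coding genes. The nuclear receptor genes are long, with a median of 47.1 kb against 17.2 kb for all protein-coding genes, and the highest of many bases grows with length. Among genes over 100 kb, 53.2% reached 5, and 8 of the 13 receptor genes of that length did (61.5%). With each member at the share of its length class, 10.7 members would reach 5. The class over 100 kb has no upper limit, so it accounts for length only in part. Its median length is 171.8 kb, and that of the 13 members in it is 203.1 kb. The share of bases at 3 or more inside the genes was 0.322% over the 45 genes pooled, 0.328% over all protein-coding genes pooled and 0.329% over those above 100 kb. Taken gene by gene, the median share was 0.270% for the 45 and 0.129% for all protein-coding genes, and this median also rose with length, to 0.301% in all genes over 100 kb.

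Ppard (gene 19015), the fatty acid receptor PPAR delta, had the strongest signal of all members. It lies on chromosome 17 from 28232754 to 28301469, and its inside score of 12.37 came from 20 inferred reads against 2.50 expected, at 28241604. This summit was 8850 bp inside the lower-coordinate end. Of the protein-coding genes between 30 and 100 kb, 0.256% had an inside score as high. A further summit of 11.66, from 19 inferred reads, lay at 28242521, and a weaker one of 6.51, from 13 reads, lay between them at 28241997. The first and the last summit were 917 bp apart, and the lowest scores in the gaps were 2.37 and 1.42. In all, 5 runs inside the gene reached 5. These summits are called a cluster here, and whether they are separate sites or 1 broad enrichment was not tested.

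The only region called in or within 10 kb of a nuclear receptor gene was in this cluster. It ran from 28242413 to 28242646, a length of 234 bp, and ranked 76 by summit score of the 125 regions called in the genome. The higher summit at 28241604 was not called, because its run at 5 or more was 151 bp long with breaks closed, short of the minimum. Joining gaps of up to 100 bp added it, with a length of 282 bp. A called region lay inside or within 10 kb of 146 protein-coding genes, or 0.667%. At the ends of Ppard the promoter score was 1.90, from 6 inferred reads, so the signal was inside the gene and not at its ends.

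The next highest inside scores were those of Rarb and Esrrg, which tied at 8.13 from 15 inferred reads against 2.43 expected. Rarb (gene 218772) encodes a retinoic acid receptor and lies on chromosome 14 from 16430839 to 17082331. Its summit at 16653709 was 222870 bp from the lower-coordinate end, in a run of 86 bp. Esrrg (gene 26381) encodes an estrogen-related receptor of oxidative tissues and lies on chromosome 1 from 187608510 to 188214885. Its summit at 187733777 was 125267 bp from the lower-coordinate end, in a run of 108 bp. The genes span 651493 and 606376 bp, and 2.96% of genes over 100 kb scored as high. Both are longer than most genes of that class, whose median is 171.8 kb, so this share does not fully account for their length.

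Nr1d1 (gene 217166), the heme receptor REV-ERB alpha that represses clock genes, scored 6.51 inside a gene of only 7446 bp on chromosome 11, from 98767932 to 98775377. The summit at 98774044 came from 13 inferred reads against 2.43 expected and was 1333 bp inside the higher-coordinate end, just beyond the promoter window. Of the genes under 10 kb, 0.707% scored as high. A second run, of 25 bp, reached 5.75 at 98772990. Bases at 3 or more made up 6.96% of the gene, 18.6 times the share of chromosome 11, which was the highest such ratio of the 45. The fifth inside score was the 5.61 of Rorb, a receptor of retina and brain in a gene of 180588 bp, where 30.6% of genes over 100 kb scored as high.

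**Figure D4:**
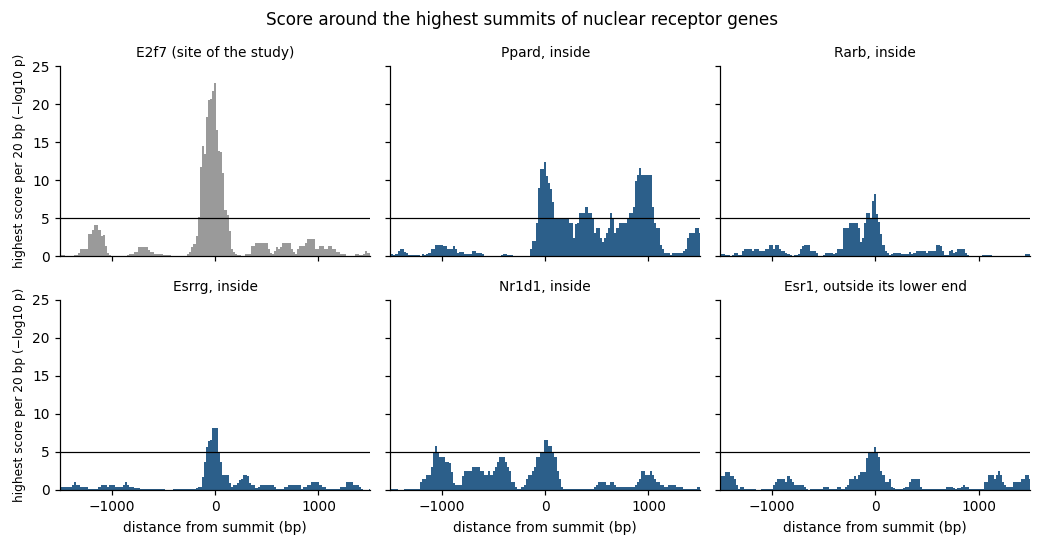
Highest score (−log10 p) per 20 bp by distance in bp from the highest summit, within 1500 bp, for E2f7 (22.79, grey) and for 5 summits at nuclear receptor genes, with a line at 5. Ppard shows a row of summits and Nr1d1 a second, lower one, and Rarb a shoulder of 4.31 beside its summit, split off by a fall to 1.90, while Esrrg and Esr1 show 1 narrow run at 5 or more.

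Of the remaining 8 members at 5 or more inside, every one had the same score of 5.01 from 11 inferred reads. These were the glucocorticoid and mineralocorticoid receptors Nr3c1 and Nr3c2, Nr6a1, Rara, Rora, Esr1, Esrra and Rxra. Their longest runs at 5 or more, with breaks closed, were between 1 bp at Nr3c1 and 45 bp at Rxra, where 42 bp reached 5. The Esrra site is the one at its gene end, already counted in its promoter score, and 5 bp of it at 5 or more lay inside. Of the 13 members at 5 or more, 12 had no called region inside. This was also usual among all protein-coding genes. There 3038 scored 5 or more inside, and 146 had a called region inside or within 10 kb.

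By role, a score of 5 inside was reached by 3 of 4 clock receptors, 2 of 3 estrogen-related receptors and 3 of 5 steroid receptors, where the shares of their length classes would give 1.29, 1.15 and 1.99. The medians of these groups were 5.31, 5.01 and 5.01. These groups also have the longest genes by median, 107.8, 160.5 and 108.9 kb. Esrra counted here through the site at its gene end. Among the receptors for retinoids, thyroid hormone and vitamin D 2 of 8 reached 5, among the orphan receptors 1 of 11, and among the immediate-early NR4A receptors 0 of 3, where length classes would give 1.85, 1.87 and 0.365. Of the fatty acid receptors Ppard and Pparg, 1 of 2 reached 5, where length classes would give 0.728, with a median of 8.34. The NR4A genes had a median of 20.9 kb and the lowest share of bases at 3 or more, 0.0579%.

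**Figure D5:**
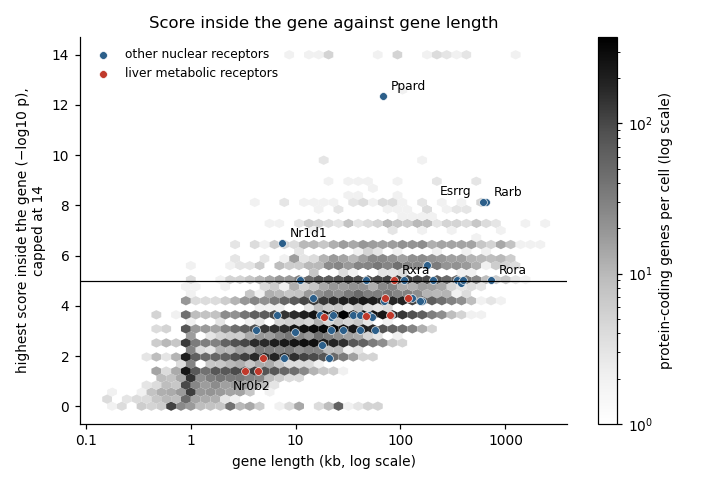
Highest score inside the gene (−log10 p, capped at 14) against gene length in kb on a log scale, for all protein-coding genes as grey cells shaded by their number and for the 45 nuclear receptor genes as points. The score rises with length for all genes, and Ppard at 12.37 and Nr1d1 at 6.51 stand above most genes of their length, while Rora at 5.01 does not.

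Among the liver metabolic receptors 1 of 9 reached 5 inside (11.1%), which was Rxra. The shares of their length classes would give 1.48, and 13.9% of all protein-coding genes reached 5. Nr0b2 and Nr1h2, whose genes are short, scored 1.42, Nr1i3 scored 1.90, and Nr1h3, Nr1i2 and Nr1h4 scored 3.55, 3.60 and 3.65. Nr5a2 and Ppara both scored 4.31 from 10 inferred reads, and Rxra scored 5.01. The median was 3.60 for the liver metabolic receptors, 3.92 for the other members and 3.02 for all protein-coding genes. The difference of −0.32 between the receptor groups turned to 0.66 when Ppard, Pparg, Nr1d1, Nr1d2, Rora, Nr3c1, Thrb and Esrra were counted with the liver group, and was 0 in genes of 10 to 100 kb. The share of bases at 3 or more exceeded that of the chromosome in 1 of the 9 liver metabolic receptors, Nr1h3, and in 14 of the other 36. It did so in 6886 of all 21887 protein-coding genes, and in 1048 of the 2429 over 100 kb.

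Beyond the genes, 5 of the 45 reached an outside score of 5, or 11.1%, beside 10.3% of all protein-coding genes. The highest was Rxrb, a retinoid X receptor on chromosome 17 from 34031812 to 34038403. Its score of 7.31 came from 14 inferred reads against 2.43 expected at 34027439, which is 4373 bp from the gene and inside H2-Ke6. The run at 5 or more spanned 54 bp with breaks closed. Thra, a thyroid hormone receptor, scored 6.51, and its summit is the one inside Nr1d1 described above, 5038 bp from Thra. The genes Thra and Nr1d1 overlap by 1075 bp, so these scores are 1 signal and not a pair of them.

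Rorb scored 5.75 from 12 inferred reads at 19113986 on chromosome 19, 2790 bp beyond its higher-coordinate end, with a run of 96 bp. The nearest other gene, Gm50212, was 130049 bp from that summit. Esr1 and Esrra completed the 5 with 5.61 and 5.01, from the sites already given at their ends. For 16 of the 45 the outside summit lay in another gene.

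All 9 liver metabolic receptors had an outside score of at least 3, beside 25 of the other 36 and 74.8% of all protein-coding genes, and none reached 5. Ppara was the highest with 4.79 from 11 inferred reads, 6100 bp from the gene. Nr0b2 and Nr1h3 scored 4.31 and Nr1h2 scored 4.20, with the Nr1h3 and Nr1h2 summits in their neighbours Madd and Pold1. Nr1h4 scored 3.72 and Nr1i3 scored 3.65. Rxra scored 3.15, and Nr1i2 and Nr5a2 were the lowest with 3.02. The median was 3.72 for the liver metabolic receptors, 3.29 for the other members and 3.55 for all protein-coding genes. The difference of 0.43 is less than 1 read. It was 0 within 5 kb and 0.59 within 20 kb. The count at 3 or more also depended on the window. Within 5 kb Nr1i2, Nr5a2 and Rxra scored 2.37, 2.44 and 1.84, and the other liver metabolic receptors stayed at 3 or more. The counts of the other members and of all genes within 5 kb are not given here.

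Cofactors are the proteins that nuclear receptors recruit to silence or activate genes. Of 18 cofactors, none reached a promoter score of 5 and 5 reached 3, which is 27.8% beside the 29.1% of all protein-coding genes. Their median was 1.90 beside 2.44 for all protein-coding genes, a distance of 1 read. Setting each at the share of its chromosome would give 5.29 at 3 and 0.634 at 5. The highest was the corepressor Ncor1 with 4.89, followed by Med1, a Mediator subunit, with 3.65. The deacetylase Sirt1, the scaffold Sin3a and the coactivator Ncoa1 shared 3.02. Gps2, a subunit of the NCOR complex and named after its values were seen, scored 1.90 at its ends. Within 10 kb it scored 13.56, and 0.206% of all protein-coding genes scored as high. An outside score of 5 was reached by 3 of the 18 cofactors (16.7%), beside 10.3% of all protein-coding genes. Only Gps2 among them had a called region inside or within 10 kb, beside 0.667% of all protein-coding genes.

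Of 32 genes that nuclear receptors regulate, 14 had a promoter score of at least 3, which is 43.8% beside 29.1% of all protein-coding genes, where chromosome shares would give 9.29 genes. A score of 5 was reached by 2 of them (6.25%), beside 3.6% of all protein-coding genes. The median of 2.44 was that of all genes. This list was written with earlier results of these data known, and its counts were not repeated with other windows. Angptl4, an inhibitor of lipoprotein lipase and a target of the fatty acid receptors, scored 5.01 from 11 inferred reads. Cry1, a clock repressor, scored 4.32. Cyp7a1, the rate-limiting enzyme of bile acid synthesis, scored 1.84. No target gene had a called region inside or within 10 kb, and only 0.667% of all protein-coding genes had one.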

How the data were processed

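The authors mapped the reads with Bowtie2, sorted them with SAMtools and made the track with MACS2. The submitters' processing notes name the build mm10. Versions, the handling of duplicates and of read mates, and how replicates were combined are not given in the sources used here. The deposited values are −log10 p-values of ChIP over Input, used as they are. There were 0 other columns of per-sample values, and the depth of each library is unknown.

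Scores were read over 3 windows for every protein-coding gene of RefSeq GRCm38.p6, matched by symbol. All 45 members were found. No filter on low values was applied. Regions were called on the main chromosomes where a run scoring 5 or more, closed over breaks of 30 bp or less, spanned 200 bp or more. Reads and expected levels were inferred as the whole number and Poisson mean that give a score. Such levels were found for all but 2002 of the 8719562 bases scoring 3 or more, and the lowest expected level was taken where several matched. Length classes were under 10, 10 to 30, 30 to 100 and over 100 kb.

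Members and lists were chosen with earlier results of these data known. Genes given in detail were those with the 8 highest promoter scores, the 5 highest inside and outside scores, a called region, or the 3 lowest promoter scores, the liver metabolic receptors, and the top 3 of each other list, of which 1 gene is not reported here. Cyp7a1 and Gps2 were added after their values were seen. Genes are not replicates, and no test was run. Windows, cutoffs, lists, the minimum length, gaps and counting each read pair once were varied. The steps were tested on simulated data. Python 3.11.15, numpy 2.4.6, pandas 2.3.3, numba 0.67.0 and matplotlib 3.10.9 were used.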

Additional observations from a re-analysis of the deposited data

How the results depend on the processing

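Members with a promoter score of at least 5 numbered 2, but 1 with windows of 500 bp (2.56% of all genes), where Esr1 fell to 2.44, 3 with windows of 2 kb (5.19%), where Nr1d1 was added, 8 when 3 was the cutoff (29.1%), 0 when 10 was (0.279%), and 0 with each read pair counted once (0.457%). Members with a promoter score of at least 3 numbered 8, but 4 with 500 bp (17.7% of all genes), 21 with 2 kb (45.4%) and 1 with each pair counted once (2.29%), which was Esr1 with 3.49. The difference in median promoter score between liver metabolic and other receptors reversed from 0.35 to −0.061 with 500 bp, and that inside genes from −0.32 to 0.66 with the longer liver list. Called regions at members numbered 1, out of 125 in the genome. Lowering the cutoff to 3 gave 5 out of 773. Raising it to 10 left 0, and the genome-wide number at that cutoff is not given here. A shorter minimum length, 100 bp, gave 5 out of 640. Closing breaks as long as 100 bp gave 2 out of 170. The genome-wide number thus rose in each setting where the number at members did. Members at 5 or more inside numbered 13, but 1 at a cutoff of 10 (0.37% of all genes) and 1 with each pair counted once (0.585%), which was Ppard in both cases, with 7.02 in the latter. Counting pairs once divides the inferred reads, rounded down, and the expected level by 2, so it lowers every score by construction. No paired analysis was possible because single libraries have no values in the track, and no replicate could be left out for the same reason. Windows on the transcription start only and the T-box motif search, with its alternative, were not run, because strands and sequences were not used here. The small number of inferred reads behind a score limits all of this, since 1 read is a step of about 0.58 between promoter scores of 2.44 and 3.02.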
